A study of Mus musculus with 12 samples.

Results

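The genes described here are 44 mouse genes of the antioxidant, glutathione and pentose phosphate systems, chosen by symbol for their place in these pathways. They were grouped as the NRF2 regulators (2 genes), NRF2 target genes (8), peroxidases (11), superoxide dismutases (3) and thioredoxin and glutaredoxin genes (4). The other groups were glutathione transferases (12) and pentose phosphate genes (4). Among the pentose phosphate genes, G6pdx and Pgd belong to the oxidative branch that makes NADPH, and Tkt and Taldo1 to the non-oxidative branch. All 44 are among the 16411 genes of the deposited count table, and all 44 passed the expression filter that left 13191 genes for testing. The 44 were chosen with earlier results of these data known. The study sequenced RNA of 6 mammary tumors and of 6 pieces of benign tissue, meaning mammary tissue in which no tumor was visible. Both groups came from heterozygous female MMTV-Neu-NDL-YD5 transgenic mice on an FVB background, in which the MMTV promoter drives activated HER2 in the epithelium of the gland, so the benign samples carried the transgene too. Benign tissue was cut as far from a tumor as possible, and for RNA no mouse gave both a tumor and a benign sample. No treatment or age is named in the labels. The samples were whole pieces of tissue, in which the fat pad, vessels and stroma are measured together with the epithelium.

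NRF2, encoded by Nfe2l2, is a transcription factor that KEAP1 binds and marks for degradation, and oxidants or electrophiles that modify KEAP1 let NRF2 accumulate. NRF2 then binds antioxidant response elements near genes for glutathione synthesis, quinone reduction, heme breakdown and the thioredoxin system. Peroxiredoxins and glutathione peroxidases reduce peroxides, glutathione transferases join glutathione to electrophiles, and both systems are recharged with electrons from NADPH, which the oxidative pentose phosphate pathway supplies. Adipose tissue, a large part of the mammary fat pad, also uses NADPH from this pathway to make fatty acids.

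The labels were checked against marker genes. Erbb2, the gene for HER2, had 56.8 ± 11.2 CPM in the benign samples, against 7411 ± 5090 CPM in the tumors (mean ± SD, n = 6 per group). CPM are counts scaled to a common library size, here by the TMM method of edgeR. Total counts per sample ran from 5240853 to 8588567. Adipocyte markers took 1.16% to 2.24% of the counts in benign samples and 0.00463% to 0.0184% in tumors, and all 10 of these genes were lower in tumors. Luminal epithelial markers took 0.0753% to 0.297% of benign counts and 0.361% to 0.521% of tumor counts, with 8 of 10 higher, while the luminal keratin Krt19 was lower (log2 fold change -4.74). Fibroblast markers ranged from 0.425% to 1.37% in benign tissue and from 0.0514% to 0.117% in tumors, and all 8 endothelial and all 8 basal epithelial markers were lower in tumors as well. Skeletal muscle markers held 5.34%, 3.15% and 7.62% of all counts of benign samples 3, 4 and 6, at most 0.0417% in the other benign samples, and at most 0.0168% in any tumor. The brown fat list was highest in benign samples 4 (0.274%) and 6 (0.0750%), and the lymphocyte list in benign sample 1 (0.0974%). The part of these cell types in the results that follow was not tested beyond the comparison without benign samples 3, 4 and 6, and in bulk tissue fewer cells of a type and less RNA per cell cannot be told apart.

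Of the 44 genes, 29 were lower and 5 were higher in tumors by edgeR's quasi-likelihood test at an adjusted p-value under 0.1, and 10 did not pass. Over all 13191 genes tested, 63.0% passed in either direction, 28.2% as higher and 34.8% as lower. The median log2 fold change (tumor against benign) was -0.70 over the 44 genes and -0.06 over all genes. For 23 of the 44, every tumor lay below every benign sample, where 21.2% of all genes did, and for 0 of the 44 did every tumor lie above every benign sample, where 14.7% of all genes did. Falls of more than 1 on the log2 scale were called for 16 members against 21.0% of all genes, and rises of more than 1 for 2 members, Nqo1 and Hmox1, against 11.1% of all genes. The lower genes were found in every role, and they made up all 4 pentose phosphate genes, all 3 dismutases and 10 of the 12 glutathione transferases. Of the 8 genes grouped as NRF2 targets, 2 were higher, 2 were lower and 4 did not pass the test. This makes 50% called, against 63.0% of all genes, and in so few genes it is no result about the group. Genes of the other roles on which NRF2 may also act were not counted among these 8.

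**Figure D1:**
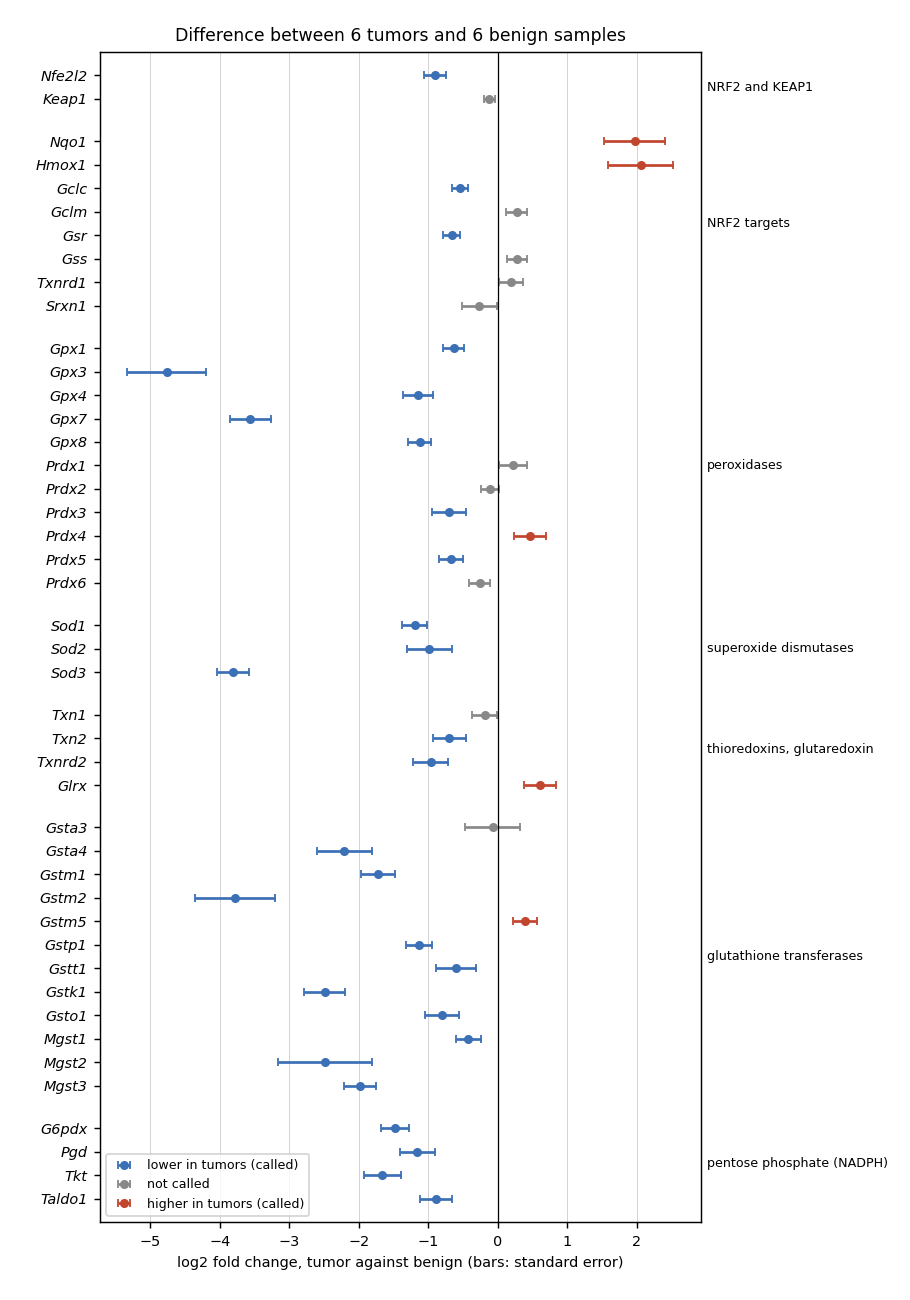
Log2 fold change of each of the 44 genes (horizontal axis, tumor against benign, bars show 1 standard error), grouped by role and colored by the edgeR call at an adjusted p-value under 0.1. Most points lie left of 0, with Gpx3 (-4.77), Sod3 (-3.81), Gstm2 (-3.78) and Gpx7 (-3.56) farthest left and Hmox1 (2.05) and Nqo1 (1.97) farthest right.

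Among the regulators, Nfe2l2 was lower in tumors and Keap1 was not called. Nfe2l2 ran from 102 to 136 CPM in benign samples (median 119) and from 46.6 to 83.6 CPM in tumors (median 61.5). Every tumor therefore lay below the lowest benign sample, and the log2 fold change was -0.90 (SE, the standard error, 0.15, edgeR adjusted p = 0.00027). Keap1, whose protein is the adaptor of a ubiquitin ligase, had a median of 85.1 CPM in benign tissue (79.5 to 99.9) and 80.1 CPM in tumors (75.4 to 84.2). The ranges of Keap1 overlapped, and its log2 fold change of -0.12 had a standard error of 0.08 (edgeR adjusted p = 0.24). These are RNA levels, and the amount or activity of the NRF2 protein was not measured in these data.

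The targets with the largest rises were Hmox1 and Nqo1. Hmox1, heme oxygenase 1, which opens the heme ring, ranged from 26.5 to 46.2 CPM in benign samples (median 28.3) and from 33.7 to 237 CPM in tumors (median 146). Tumors 1, 2 and 3 held 210, 200 and 237 CPM and tumor 6 held 92.3 CPM, whereas tumors 4 and 5, at 33.7 and 34.3 CPM, lay within the benign range. The log2 fold change of Hmox1 was 2.05 with a standard error of 0.47 (edgeR adjusted p = 0.0024), a 4.15-fold rise. Nqo1, a quinone reductase that uses NADPH or NADH, ranged from 4.26 to 14.6 CPM in benign samples (median 8.38) and from 11.4 to 57.5 CPM in tumors (median 30.3). Tumors 2 and 3 were highest at 55.6 and 57.5 CPM, and tumors 1 and 5, at 14.3 and 11.4 CPM, lay within the benign range. Its log2 fold change was 1.97 (SE 0.44, edgeR adjusted p = 0.0020), a 3.92-fold rise. Tumor 1 was thus among the highest for Hmox1 and among the lowest for Nqo1, while tumor 5 was low for both.

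The remaining targets act in glutathione and thioredoxin metabolism, and none of them was called higher in this fit, although Gss and Gclm were under some alternatives. Gclc, the catalytic subunit of the enzyme that limits glutathione synthesis, ran from 42.0 to 57.7 CPM in benign samples and from 30.3 to 39.5 CPM in tumors. It was lower in every tumor (log2 fold change -0.54, SE 0.11, edgeR adjusted p = 0.00093). Gclm, the modifier subunit of the same enzyme, had a median of 62.5 CPM in benign tissue (49.8 to 95.9) and 81.1 CPM in tumors (65.7 to 95.1), and its log2 fold change of 0.27 did not pass (edgeR adjusted p = 0.15). The 2 subunits therefore had values on opposite sides of 0, with the call for Gclc alone. Gclm had 1 high benign sample, number 5 at 95.9 CPM, and without it the log2 fold change was 0.41 (edgeR adjusted p = 0.014). Gclm also passed the test without tumor 4 or tumor 6 (both 0.38) and with a filter of 1 count in total (0.35, edgeR adjusted p = 0.072) or 10 counts in every sample (0.32, edgeR adjusted p = 0.091). Gss, glutathione synthetase, which catalyzes the last step of glutathione synthesis, had medians of 25.7 CPM in benign tissue (18.0 to 32.2) and 31.5 CPM in tumors (26.7 to 35.2), with a log2 fold change of 0.28 (edgeR adjusted p = 0.12). It passed the test without benign sample 4 or tumor 2, 3, 4 or 5 taken singly (0.33 to 0.38). Gss was also called higher by DESeq2 (0.31, adjusted p = 0.073), by edgeR with library totals (0.38, adjusted p = 0.039) and by edgeR with either other filter (0.36 and 0.33). Gsr, glutathione reductase, which returns oxidized glutathione to its reduced form with NADPH, ran from 49.3 to 68.7 CPM in benign samples and from 30.7 to 43.4 CPM in tumors. No tumor reached the benign range of Gsr, and its log2 fold change was -0.67 (SE 0.12, edgeR adjusted p = 0.00051).

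Txnrd1, the cytosolic thioredoxin reductase, had overlapping ranges of 85.4 to 165 CPM (median 115) in benign samples and 92.7 to 155 CPM (median 139) in tumors (log2 fold change 0.19, edgeR adjusted p = 0.39). Srxn1, sulfiredoxin, which repairs overoxidized peroxiredoxins, ran from 19.3 to 56.8 CPM (median 30.3) in benign samples and from 22.5 to 38.3 CPM (median 28.1) in tumors. Its log2 fold change was -0.27 (SE 0.25, edgeR adjusted p = 0.38), and without benign samples 3, 4 and 6 it was 0.32 (adjusted p = 0.19). The highest benign value of Srxn1 was that of sample 4.

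**Figure D2:**
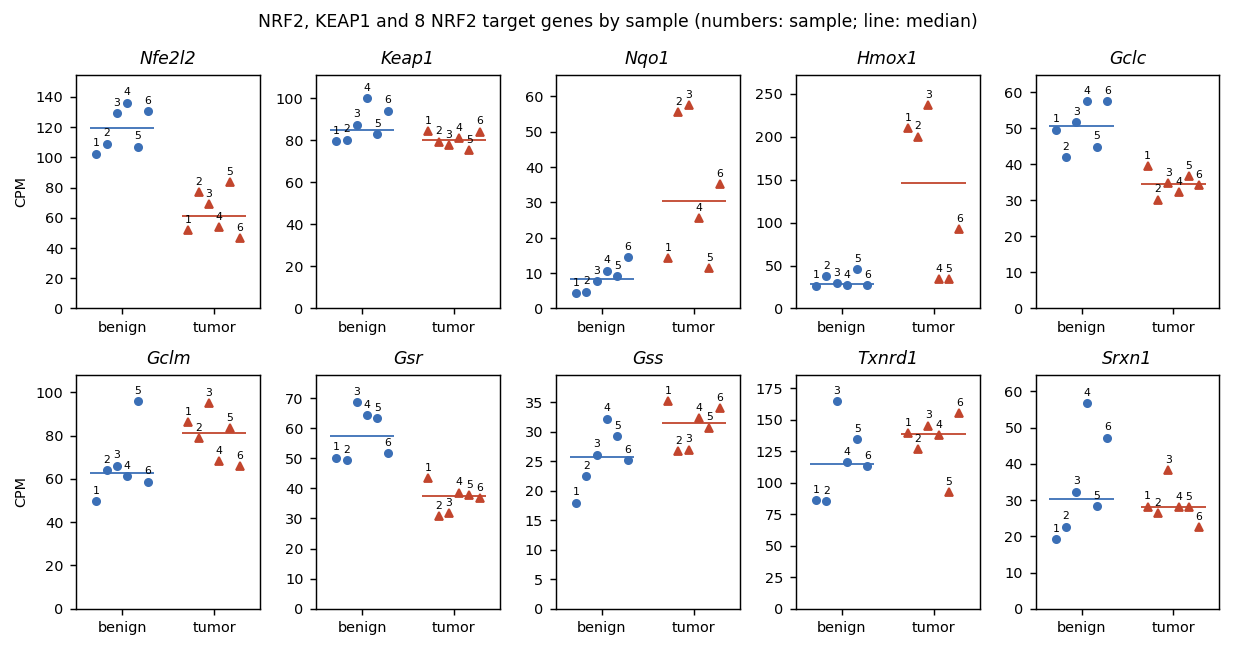
CPM of Nfe2l2, Keap1 and the 8 NRF2 targets in each of the 12 samples (1 panel per gene, linear axis from 0, numbered points are samples 1 to 6 of each group, lines are group medians). Hmox1 and Nqo1 have tumors both within and far above the benign range, whereas Nfe2l2, Gclc and Gsr have all 6 tumors below all 6 benign samples.

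Promoter sequences were examined because NRF2 acts through antioxidant response elements. RefSeq windows on GRCm38.p6 (the mm10 build named in the submitters' notes), running from 250 bases before to 50 bases after each start site, were found for 38 of the 44 genes. The core TGACNNNGC, where N is any base, was searched on both strands. It was present in 11 of 38 genes (28.9%), against 3781 of 27025 genes with a window (14.0%). By role it was found in 3 of 5 NRF2 targets, 1 of 2 regulators, 1 of 10 peroxidases and 1 of 2 dismutases. Among thioredoxin and glutaredoxin genes it was in 0 of 4, among glutathione transferases in 3 of 11, and among pentose phosphate genes in 2 of 4. Of the 11 genes with a core, 1 was higher in tumors, 5 were lower and 5 were not called (median log2 fold change -0.27). Of the 27 without one, 3 were higher, 20 were lower and 4 were not called (median -0.89). Over all genes tested, 28.2% were higher and 34.8% lower. Hmox1, Gclc, Gsr, Prdx6, Sod3 and Gsta4 had no window and are in neither count. A match describes these letters only, and its use by NRF2 was not measured here.

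Shown first are the 150 bases just before the start site of Gclm (chr3:122245407-122245556, plus strand) and Txnrd1 (second listed start, chr10:82859056-82859205, plus strand), the 2 targets not called that hold a core upstream of the start. Prdx1 (chr4:116685449-116685598, plus strand) is the only peroxidase with a core among the 10 that had a window. G6pdx (chrX:74428881-74429030, minus strand) holds a core and was lower in every tumor, and Gstm5 (chr3:107895704-107895853, plus strand) holds one and was higher. Nqo1 (chr8:107403206-107403355, minus strand) was higher, and these letters are not in its window. Each is printed 5′ to 3′ on the strand of its gene, and capitals mark the core on either strand.
Gclm: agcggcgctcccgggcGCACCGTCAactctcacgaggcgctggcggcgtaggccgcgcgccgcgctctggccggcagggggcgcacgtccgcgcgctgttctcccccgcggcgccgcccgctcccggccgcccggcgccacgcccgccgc
Txnrd1: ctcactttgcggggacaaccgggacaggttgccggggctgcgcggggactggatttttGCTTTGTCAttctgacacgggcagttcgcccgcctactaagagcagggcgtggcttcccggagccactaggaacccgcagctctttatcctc
Prdx1: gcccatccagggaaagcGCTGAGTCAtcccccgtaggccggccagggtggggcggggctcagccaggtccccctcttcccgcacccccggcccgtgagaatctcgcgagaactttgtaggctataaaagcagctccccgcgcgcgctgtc
G6pdx: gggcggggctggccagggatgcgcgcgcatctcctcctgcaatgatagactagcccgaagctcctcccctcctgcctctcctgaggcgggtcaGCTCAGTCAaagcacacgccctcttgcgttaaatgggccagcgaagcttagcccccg
Gstm5: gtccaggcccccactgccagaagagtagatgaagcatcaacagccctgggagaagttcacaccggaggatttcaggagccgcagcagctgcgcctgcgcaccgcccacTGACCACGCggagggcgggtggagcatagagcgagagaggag
Nqo1: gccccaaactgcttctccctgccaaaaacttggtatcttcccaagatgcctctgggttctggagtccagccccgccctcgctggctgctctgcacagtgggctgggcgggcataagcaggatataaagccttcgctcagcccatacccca

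Read in the direction of the motif, the cores in capitals were TGACggtGC in Gclm, 134 bases before the start site, TGACaaaGC in Txnrd1, 92 before it, TGACtcaGC in Prdx1, 133 before it, TGACtgaGC in G6pdx, 57 before it, and TGACcacGC in Gstm5, 42 before it. The remaining members with a core were Nfe2l2, Srxn1, Sod1, Gsta3, Mgst1 and Pgd. Sod1 and Gstm5 held the same letters, TGACcacGC, and Sod1 was lower in tumors where Gstm5 was higher.

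Of the 11 peroxidases, 7 were lower, 1 was higher and 3 were not called. All 5 glutathione peroxidases of the 44 were among the lower genes. Gpx2, outside the 44 and not tested, had counts in tumors only. Gpx3, the secreted plasma form that adipose tissue is known to make, ran from 199 to 1057 CPM in benign samples (median 266) and from 8.91 to 25.9 CPM in tumors (median 22.4). Benign samples 4 and 6 held 1047 and 1057 CPM and the other 4 lay between 199 and 277 CPM, all far above the highest tumor. The log2 fold change of Gpx3 was -4.77 (SE 0.56, edgeR adjusted p = 1.2e-05), the largest fall of the 44 genes, and it was -3.58 without benign samples 3, 4 and 6. Gpx7, a peroxidase of the endoplasmic reticulum, ran from 13.1 to 22.0 CPM in benign samples (median 15.3) and from 0.688 to 2.41 CPM in tumors (median 1.13), with a log2 fold change of -3.56 (SE 0.30, edgeR adjusted p = 5.4e-07). Its relative Gpx8, also of the endoplasmic reticulum, went from a median of 20.8 CPM (15.04 to 22.8) to 8.66 CPM (7.02 to 12.1). Both had no overlap between groups, and Gpx8 fell by 1.12 on the log2 scale.

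Gpx4, which reduces lipid peroxides in membranes, had the highest level of the glutathione peroxidases per kilobase of exon in both groups. It ran from 522 to 1191 CPM in benign samples (median 586) and from 237 to 384 CPM in tumors (median 321), with the highest value in benign sample 4. The tumors all lay below the benign samples, and the log2 fold change was -1.15 (SE 0.21, edgeR adjusted p = 0.00052). Gpx1, the abundant cytosolic form, had a log2 fold change of -0.63 (SE 0.15, edgeR adjusted p = 0.0029), also with no overlap.

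Among the 6 peroxiredoxins, Prdx3 (-0.70, the mitochondrial form) and Prdx5 (-0.67) were called lower and Prdx4 (0.46, of the endoplasmic reticulum) was called higher by edgeR, with adjusted p-values of 0.026, 0.0052 and 0.099. Prdx5 was lower in every tumor, while 3 tumors lay below the benign range of Prdx3 and 3 above that of Prdx4. The call for Prdx3 was lost without benign samples 3, 4 and 6 (log2 fold change -0.05, edgeR adjusted p = 0.81). Prdx4 also lost its call without those samples (0.34), and without benign sample 1, 4 or 6 or tumor 2, 3 or 4 taken singly (0.35 to 0.50).

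Prdx1, an abundant cytosolic peroxiredoxin, ran from 316 to 482 CPM in benign samples (median 432) and from 238 to 579.8 CPM in tumors (median 538). Of the tumors, 4 lay above the benign range and tumor 5, at 238 CPM, lay below it, so the groups crossed in both directions. The log2 fold change was 0.22 (SE 0.20, edgeR adjusted p = 0.37), and without tumor 5 it was 0.43 (adjusted p = 0.017). Prdx2, the form of red cells and the cytosol, had medians of 225 CPM (162 to 266) and 211 CPM (185 to 235), and its log2 fold change of -0.11 was not called (edgeR adjusted p = 0.47). Erythroid markers took 0.102% to 0.369% of the counts in benign samples and 0.0254% to 0.0670% in tumors, and their part in the Prdx2 values was not tested. Prdx6, which reduces phospholipid peroxides with glutathione, had medians of 292 CPM (195 to 343) in benign tissue and 233 CPM (196 to 292) in tumors (log2 fold change -0.26, edgeR adjusted p = 0.15), and without benign sample 1 it passed the test (-0.30).

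**Figure D3:**
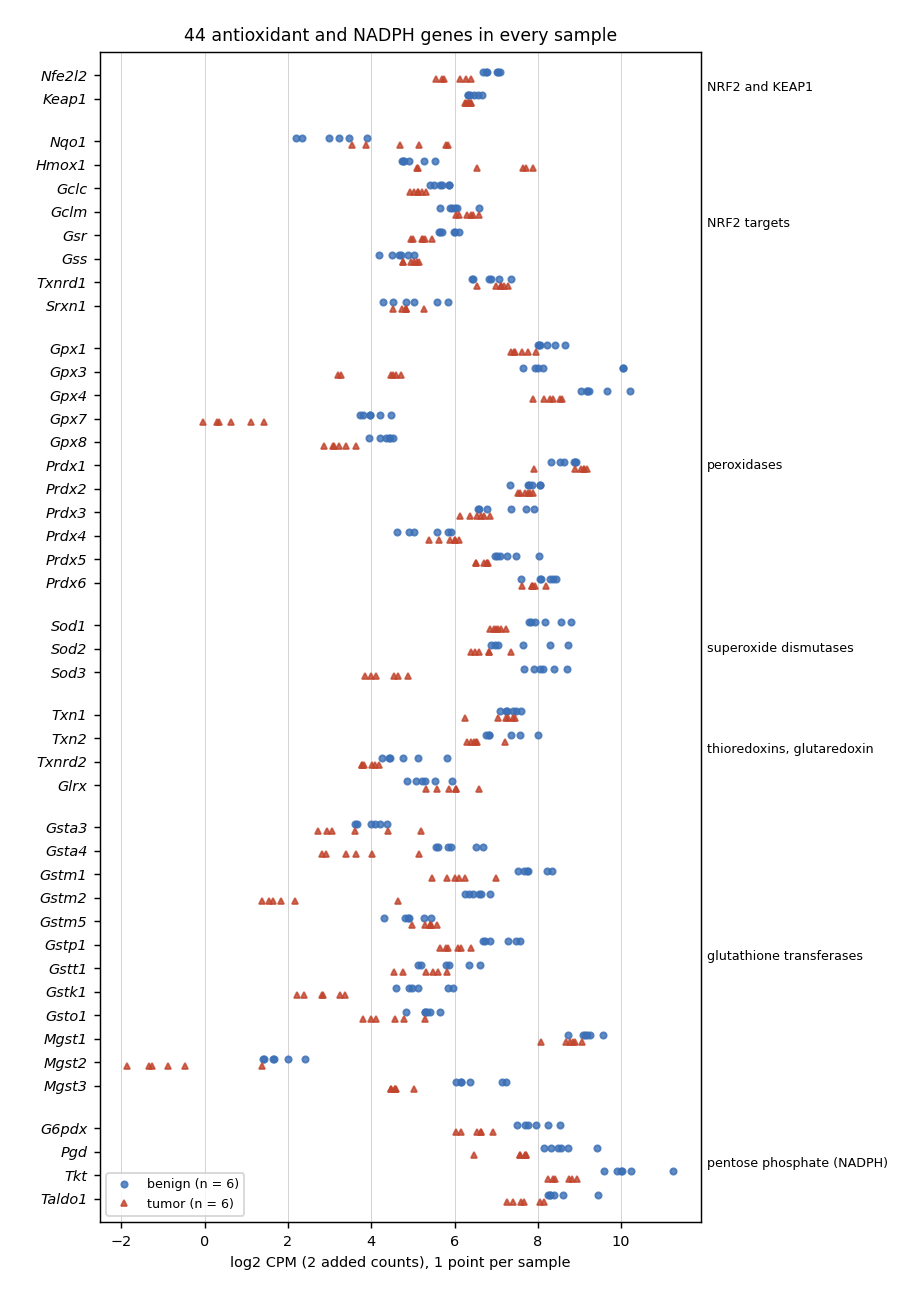
Log2 CPM (horizontal axis, 2 added counts) of the 44 genes (rows, grouped by role), with 1 point per sample, blue circles for the 6 benign samples and red triangles for the 6 tumors. The groups are widely separated for Gpx3, Sod3, Gpx7 and Gstm2, and for 23 genes all triangles lie left of all circles.

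All 3 superoxide dismutases, which turn superoxide into hydrogen peroxide, were lower in tumors. Sod3, the extracellular enzyme, ran from 205 to 414 CPM in benign samples (median 269.9) and from 14.0 to 29.4 CPM in tumors (median 19.9). The groups were far apart, with a log2 fold change of -3.81 (SE 0.24, edgeR adjusted p = 3.8e-08), a 14.0-fold difference. Sod1, the cytosolic enzyme, ran from 220.2 to 446 CPM (median 265) and from 115 to 152 CPM (median 129), again without overlap, and its log2 fold change was -1.19 (SE 0.18, edgeR adjusted p = 9.5e-05). Sod2, the mitochondrial enzyme, had a log2 fold change of -0.99 (SE 0.32, edgeR adjusted p = 0.019), and 5 of 6 tumors lay below the benign range. For Sod2, benign samples 4 and 6 held 419 and 314 CPM and sample 3 held 199.7 CPM, and without those 3 samples the log2 fold change was -0.14 (edgeR adjusted p = 0.60). Sod1 and Sod3 kept their calls without them (log2 fold changes -0.90 and -3.55).

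The thioredoxin and glutaredoxin genes differed in both directions, with log2 fold changes from -0.97 (Txnrd2) to 0.61 (Glrx). Txn1, cytosolic thioredoxin, had medians of 159.9 CPM in benign tissue (137 to 194) and 153 CPM in tumors (75.8 to 174), and it was not called (log2 fold change -0.19, edgeR adjusted p = 0.39). Tumor 5 was the lowest, and without it the log2 fold change was 0.0040. The mitochondrial pair Txn2 (-0.70, edgeR adjusted p = 0.022) and Txnrd2 (-0.97, adjusted p = 0.0054) was called lower. Every tumor lay below the benign range of Txnrd2 and 5 did for Txn2, whose highest tumor was number 5. Without benign samples 3, 4 and 6, Txnrd2 kept its call (-0.51) and Txn2 lost it (-0.17, edgeR adjusted p = 0.50). Glrx, cytosolic glutaredoxin, which removes glutathione from proteins, was called higher (0.61, edgeR adjusted p = 0.034), with 3 tumors above the benign range, and its log2 fold change was 0.95 without those 3 benign samples.

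Glutathione transferases were called lower for 10 of 12 genes, and for 7 of them every tumor lay below every benign sample. Gstm2, of the mu class, ran from 75.6 to 115 CPM in benign samples (median 91.5) and from 2.30 to 24.8 CPM in tumors (median 3.07). Tumor 5 held the 24.8 CPM and the other tumors at most 4.21 CPM, and the log2 fold change was -3.78 (SE 0.57, edgeR adjusted p = 0.00010), or -4.84 without tumor 5. Gstm1, of the same class, ran from 185 to 322 CPM (median 216) and from 43.6 to 128 CPM (median 66.1), with tumor 5 again the highest tumor and a log2 fold change of -1.72 (edgeR adjusted p = 5.7e-05). Gstm5, another member of the class, was called higher instead (0.40, edgeR adjusted p = 0.066), with 3 tumors above the benign range, and its call was lost without benign sample 3 (0.38) or 5 (0.36).

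Gsta4, the alpha class form that conjugates the lipid aldehyde 4-hydroxynonenal, ran from 46.7 to 102 CPM in benign samples (median 58.3) and from 6.74 to 34.9 CPM in tumors (median 11.2). Its log2 fold change was -2.21 (SE 0.39, edgeR adjusted p = 0.00037), and no tumor reached the benign range. Gsta3, of the same class, had a wider spread in tumors, from 6.37 to 36.3 CPM (median 9.97), around a benign range of 11.9 to 20.6 CPM (median 16.2). Tumors 1 and 5 lay above that range and 3 tumors below it, and the log2 fold change of -0.07 (SE 0.40, edgeR adjusted p = 0.89) took either sign as single samples were left out. Tumor 5 was the highest tumor for Gsta3, Gsta4, Gstm1, Gstm2, Gstp1, Gstt1, Gsto1 and Mgst2.

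Gstp1, of the pi class, ran from 102 to 188 CPM (median 136) in benign samples and from 49.5 to 84.0 CPM (median 62.5) in tumors, with a log2 fold change of -1.14 (SE 0.19, edgeR adjusted p = 0.00021). Gstk1, the kappa class form of mitochondria and peroxisomes, ran from 23.7 to 62.3 CPM (median 32.9) and from 4.33 to 9.99 CPM (median 6.83), with a log2 fold change of -2.49 (SE 0.29, edgeR adjusted p = 1.1e-05). In both genes the groups did not overlap. The membrane enzyme Mgst3 ran from 65.3 to 151 CPM (median 77.2) in benign samples and from 21.9 to 32.4 CPM (median 23.4) in tumors (log2 fold change -1.98, SE 0.23, edgeR adjusted p = 1.1e-05). Mgst2, which can make leukotriene C4, was near the limit of detection in tumors, with 2.37 to 5.002 CPM in benign samples (median 2.86) and 0 to 2.30 CPM in tumors (median 0.204), where 3 counts are 0.414 CPM at the mean library size. Its log2 fold change was -2.49 (SE 0.68, edgeR adjusted p = 0.0069), and -3.79 without tumor 5, the sample that held the 2.30 CPM. Gsto1 of the omega class (-0.81), Gstt1 of the theta class (-0.61) and the microsomal Mgst1 (-0.43) had smaller falls, with adjusted p-values of 0.013, 0.089 and 0.055 by edgeR. All 3 lost their calls without benign samples 3, 4 and 6, with values of -0.62, -0.29 and -0.26. Leaving out 1 sample ended the call of Gstt1 in 9 of 12 fits, all but those without benign sample 3 or 5 or tumor 5 (-0.61 to -0.42). Gstt1 also lost its call with DESeq2 (-0.58, adjusted p = 0.10), library totals (-0.48) and either other filter (-0.52 and -0.55). Leaving out 1 sample ended the call of Mgst1 in 7 of 12 fits, those without benign sample 2 or 4 or any of tumors 1 to 5 (-0.39 to -0.26), and library totals (-0.32) and the filter of 1 count in total (-0.34) ended it too.

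The 4 pentose phosphate genes were lower in every tumor than in any benign sample. G6pdx, glucose-6-phosphate dehydrogenase, the entry enzyme of the oxidative branch, ran from 179 to 369 CPM in benign samples (median 233) and from 65.4 to 121 CPM in tumors (median 95.6). Its log2 fold change was -1.48 (SE 0.20, edgeR adjusted p = 4.3e-05), a 2.78-fold difference. Pgd, phosphogluconate dehydrogenase, which makes the second NADPH of that branch, ran from 283 to 688 CPM (median 367) and from 87.5 to 210.3 CPM (median 199), with tumor 5 well below the others at 87.5 CPM. The log2 fold change of Pgd was -1.16 (SE 0.25, edgeR adjusted p = 0.0016).

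Tkt, transketolase of the non-oxidative branch, ran from 770.4 to 2442 CPM in benign samples (median 1026) and from 302 to 494 CPM in tumors (median 385), with a log2 fold change of -1.66 (SE 0.27, edgeR adjusted p = 0.00018). Taldo1, transaldolase, which works beside it, ran from 303 to 696 CPM (median 326) and from 152 to 285 CPM (median 197), with a log2 fold change of -0.89 (SE 0.23, edgeR adjusted p = 0.0057). Benign sample 4 was the highest of all samples for each of the 4 genes. Without benign samples 3, 4 and 6 each call remained, at -1.17 for G6pdx, -0.86 for Pgd, -1.18 for Tkt and -0.55 for Taldo1 (adjusted p of 0.042 or less by edgeR). Adipocyte markers, which moved in the same direction, were high in all 6 benign samples, and their part in these falls was not tested.

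**Figure D4:**
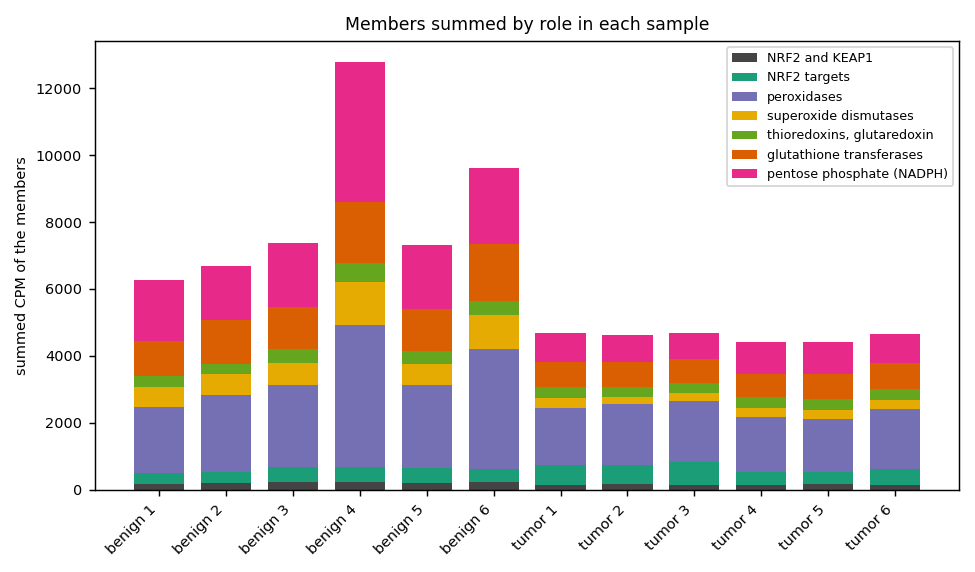
Summed CPM of the 44 genes in each of the 12 samples, as 1 bar per sample stacked by role (vertical axis from 0). The pentose phosphate genes sum to between 1596 and 4195 CPM in benign samples and between 789 and 959 CPM in tumors. Tkt, of the non-oxidative branch, alone holds 770.4 to 2442 CPM in benign samples and 302 to 494 CPM in tumors. The 8 genes grouped as NRF2 targets sum to between 304 and 452 CPM in benign samples and between 355 and 666 CPM in tumors. Of these sums, Hmox1 alone holds 26.5 to 46.2 CPM in benign samples and 33.7 to 237 CPM in tumors.

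Summed over all 44 genes, tumors were close to each other, from 4402 to 4696 CPM, and benign samples ran from 6259.6 to 12784 CPM. Benign sample 4 was highest (12784) and sample 6 second (9628), and the other 4 lay between 6259.6 and 7379.8 CPM. Sample 4 held the highest benign value for 21 of the 44 genes and sample 6 for 11, while sample 1 held the lowest for 25. For 27 of the 44 genes (61.4%) the SD of log2 CPM was larger in benign tissue, where 56.7% of all genes had the larger SD there. Among tumors, number 5 held the highest value for 18 genes and the lowest for 9.

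Benign samples 3, 4 and 6, which held the muscle markers, were left out to see how far the results rest on them. Samples 4 and 6 were also highest for brown fat markers (0.274% and 0.0750% of counts). Sample 3 held 5.34% muscle counts and a sum over the members of 7379.8 CPM, beside 7327 CPM in sample 5. Which of these features the changed calls follow was not tested. With 3 benign samples left, 23 members were called lower by edgeR, against 28.7% of all genes. Another 5 were higher, so 28 of 44 were called in either direction, against 55.4% of all genes. The median log2 fold change of the members was -0.41, against 0.00 over all genes, and 38 of the 44 values lay above those of the full comparison. Besides the calls named above, Gss was called higher in this comparison (0.45, edgeR adjusted p = 0.062). Gclc (-0.35), Gstp1 (-0.71) and Prdx5 (-0.38) kept their calls at smaller differences, and Gstm5 (0.71) kept its call at a larger one. The falls of Gpx3, Gpx7, Gpx8, Sod3, Gstm1, Gstm2, Gsta4, Gstk1 and Mgst3 remained above 1 on the log2 scale, as did those of Mgst2, G6pdx and Tkt, and the rises of Hmox1 (1.90) and Nqo1 (2.48) kept their calls.

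**Figure D5:**
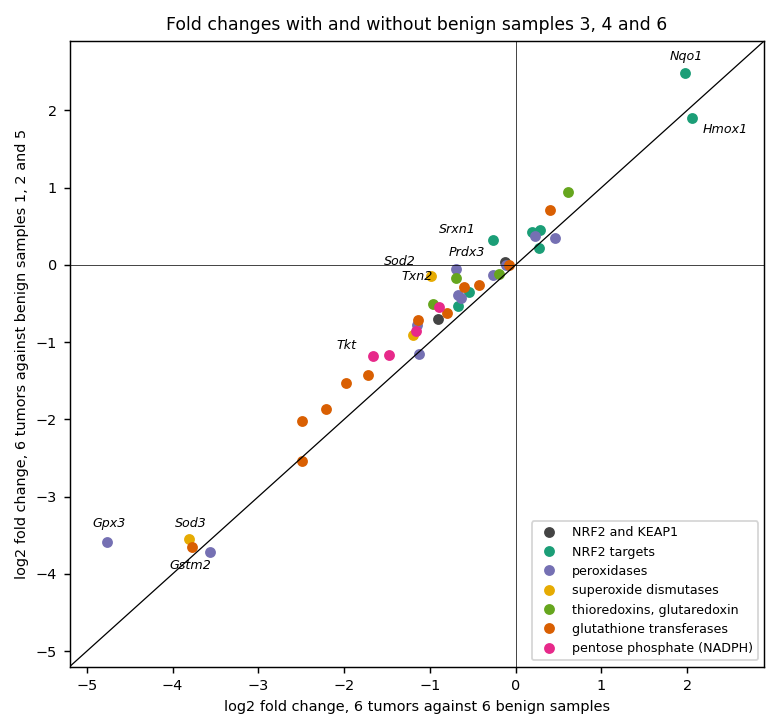
Log2 fold change of each of the 44 genes with all 6 benign samples (horizontal axis) and without benign samples 3, 4 and 6 (vertical axis), colored by role, with the line of equal values. Most points lie above the line, as 38 of 44 do, and Prdx3, Sod2 and Txn2 sit close to 0 on the vertical axis.

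Levels of different genes were compared per kilobase of exon, using lengths from the GENCODE M21 annotation. By median CPM per kilobase, Gpx4 was the highest of the 44 genes in both groups (460.5 in benign tissue and 252.3 in tumors). Next in benign tissue were Sod1 (412.8), Tkt (318.3) and Mgst1 (311.1), and next in tumors were Mgst1 (245.3), Prdx1 (211.3) and Sod1 (201.6). Hmox1 moved from rank 35 in benign tissue to rank 10 in tumors, Gpx3 from rank 8 to rank 32, and Sod3 from rank 19 to rank 40. These medians are given as a description without a test. Several genes share sequence with close copies, so the counting could have divided reads between them. The share of stretches of 31 bases also found in other genes' transcripts was 67.5% for Gstp1 (mainly Gstp2), 66.8% for Gpx4 (pseudogenes), 35.4% for Sod1, 34.3% for Gstm1, 22.4% for Taldo1 and 19.5% for Gstm2.

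Other genes of the same systems were read from lists chosen for their role. Their counts are read against the shares of all genes given above, 28.2% higher, 34.8% lower and 63.0% in either direction, and a share near these is no result about a list. Of 15 further NRF2-related genes tested, 1 was higher and 5 were lower, so 40.0% were called (median log2 fold change -0.16), fewer than among all genes. Slc7a11, the cystine transporter that feeds glutathione synthesis, was the one that rose, from 0.710 to 2.78 CPM in benign samples (median 1.23) to 1.65 to 6.39 CPM in tumors (median 3.55), with a log2 fold change of 1.38 (edgeR adjusted p = 0.020) and 4 tumors above the benign range. The largest fall was that of the heme transporter Slc48a1 (-1.12). Of 16 further glutathione genes tested, 3 were higher and 8 lower (68.8% called, close to the share of all genes, median log2 fold change -0.49), with the largest rise for the theta class transferase Gstt3 (1.49) and the largest fall for Ggt5 (-4.08), a gamma-glutamyltransferase. Gpx2, an epithelial glutathione peroxidase, was not tested because it did not pass the filter. It had 0 counts in every benign sample, and 5 of 6 tumors had counts. The tumor median was 2.30 CPM, and tumor 5 stood far above it at 50.4 CPM.

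Of 13 further thioredoxin-related genes, 3 were higher and 9 lower (92.3% called, median log2 fold change -0.78), from Sesn3 (0.91), a sestrin, to Nxn (-2.82), nucleoredoxin. Txnip, the inhibitor of thioredoxin, was not called, with medians of 1144 CPM (712 to 1866) in benign tissue and 922 CPM (732 to 1215) in tumors (log2 fold change -0.38, edgeR adjusted p = 0.16). Of 16 further NADPH-related genes, 1 was higher and 11 lower (75% called, median log2 fold change -0.84). The rise was that of Aldh1l2 (2.61), a mitochondrial folate enzyme that makes NADPH, and the largest fall was that of the mitochondrial malic enzyme Me3 (-4.73, SE 0.78). Me3 varied widely in benign samples, from 3.15 to 49.0 CPM, with sample 6 highest. In tumors it ran from 0.241 to 1.40 CPM, near the 0.414 CPM that 3 counts make at the mean library size. Me1, the cytosolic malic enzyme, had overlapping ranges of 354 to 870.1 CPM (median 458) and 277 to 583 CPM (median 399.6) and was not called (log2 fold change -0.41, edgeR adjusted p = 0.16).

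Among 10 genes for sources of superoxide and hydrogen peroxide that were tested, 3 were higher and 4 lower (70.0% called, median log2 fold change -0.10), both near the shares of all genes. Duox1, dual oxidase 1, an epithelial enzyme that releases hydrogen peroxide, ran from 3.92 to 7.40 CPM in benign samples (median 6.05) and from 70.7 to 364 CPM in tumors (median 236). All tumors lay far above the benign samples, with a log2 fold change of 5.39 (SE 0.39, edgeR adjusted p = 1.4e-07). Its maturation factor Duoxa1 (5.08) and the related Duox2 (2.23) were the other 2 that rose. Cyba, a subunit of the phagocyte oxidase, had the largest fall (-1.59), and macrophage markers took 0.0483% to 0.123% of the counts in benign samples and 0.0341% to 0.0582% in tumors, whose part in the Cyba value was not tested.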

How the data were processed

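RNA from 6 tumors and 6 benign samples was compared, grouped by the labels. The authors enriched poly A RNA, trimmed reads with Trim Galore, quantified them with Salmon and deposited, unscaled, the estimated count of each gene as a whole number, with a sum of at least 5 counts per gene. The build in the submitters' notes is mm10, and the annotation and tool versions are not given in the sources used here. Splitting of reads between near copies by Salmon can move the values of single genes. The study calls the samples of a group biological replicates. Every pair of replicates differed by more than sampling noise (smallest chi-square per degree of freedom 12.5 in benign tissue and 16.4 in tumors).

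Here, low genes were removed with filterByExpr of edgeR 4.0.16 in R 4.3.3 (min.count 10, min.total.count 15, by group). TMM scaling was followed by edgeR's quasi-likelihood test (two-sided). P-values were adjusted by Benjamini and Hochberg's method over 13191 genes and read at 0.1, as in the study. Standard errors are the log2 fold change divided by the square root of F. The common biological coefficient of variation was 0.351. Total counts were 5240853 to 8588567, and 3 counts, the floor, equal 0.414 CPM at the mean library size. Log2 CPM used 2 added counts.

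The members and all lists were chosen with earlier results of these data known. Lowest, median and highest CPM are printed for called members with a log2 fold change of at least 1 in size. They are also printed for Nfe2l2, Keap1, the pentose phosphate genes and members not called. Other pathway lists are given by counts, by the called gene of the largest rise and fall, and by Slc7a11, Me1 and Txnip. Krt19, Gpx2, Duoxa1, Duox2, the ranges of Gclc and Gsr and the values of single samples were picked after their values were seen. Alternatives were DESeq2 1.42.0, upper-quartile scaling, library totals, 2 other filters, the replicate number as a block, a stricter threshold (0.05) and leaving out each sample. Leaving out benign samples 3, 4 and 6 together was added after seeing the data. The test was tried on simulated counts with known changes in far fewer genes than were called here. No result given here rests on that trial.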

Additional observations from a re-analysis of the deposited data

Results flagged for a closer look

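In 7 of 88 groups of 6 samples (44 genes in each of 2 tissues), 1 sample lay so far from the others that Dixon's test at 95% set it apart, where chance sets apart about 1 in 20 groups. Tumor 5 accounted for 5 of the 7. It was the lowest tumor for Prdx1 (238 CPM, next 476 CPM), Txn1 (75.8 CPM, next 132 CPM) and Pgd (87.5 CPM, next 189 CPM), and the highest for Txn2 (149 CPM, next 92.5 CPM) and Gstm2 (24.8 CPM, next 4.21 CPM). Tumor 1 was the highest for Mgst3 (32.4 CPM, next 24.0 CPM). Benign sample 4 was the highest for Taldo1 (696 CPM, next 387 CPM).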

How the results depend on the processing

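Over the 44 log2 fold changes, 764 of 834 values kept their direction and side of the threshold of 0.1 under the alternatives. Another 40 lost the call, 17 gained one and 13 changed sign. The alternative threshold of 0.05 is not among the 834 values. Of the members, 3 were called higher and 27 lower at an adjusted p under 0.05, 6 and 28 with DESeq2, and 4 and 29 with upper-quartile scaling. NRF2 targets called higher numbered 4 when 1 count in total, or 10 counts in every sample, was the filter (42 members passed the latter), and 2 to 4 when single samples were left out. Peroxidases called higher numbered 0 at 0.05, with upper-quartile scaling, with the replicate block and without benign samples 3, 4 and 6, and 0 to 2 when single samples were left out. Glutathione transferases called higher numbered 0 at 0.05 and 0 to 1 when single samples were left out. The 10 called lower became 9 with DESeq2 and with the replicate block, 8 with library totals, with either other filter (Mgst2 was not tested with 10 counts in every sample) and at 0.05, 7 without benign samples 3, 4 and 6, and 8 to 10 when single samples were left out. Gstt1 lost its call with DESeq2, library totals, either filter and the replicate block (-0.56). Of the rest, 1 thioredoxin or glutaredoxin gene was called lower without benign samples 3, 4 and 6. The sign of Gsta3 changed with library totals (0.039), with the filter of 1 count in total (0.0056), without benign samples 3, 4 and 6 (0.0019) and when single samples were left out (-0.48 to 0.15). Txn1 changed sign without tumor 5 (0.0040) and ran from -0.21 to 0.0040 when single samples were left out. Keap1 (0.031), Prdx2 (0.00021) and Srxn1 (0.32) changed sign without benign samples 3, 4 and 6. The cause was not tested. Library totals moved the median of all genes from -0.06 to 0.03, and the members' median from -0.70 to -0.57. Benign and tumor samples with the same number came from different mice, and their deviations from the group means correlated between -0.124 and 0.103, so the numbers do not pair them. With the replicate block, 4 members were higher and 28 lower. Depth limits Mgst2 most, whose median in tumors lay below the floor.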
